A study of Drosophila melanogaster with 3 samples.

Results

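The 9 genes for enzymes of ecdysone synthesis in Drosophila melanogaster (nvd, spo, spok, sro, Cyp6t3, phm, dib, sad and shd) were examined for binding of the nuclear receptor Hr4. They were chosen by name for their place in the pathway, and all 9 matched one of the 13945 protein-coding genes on the 6 chromosome arms, with phm written phtm in the annotation. The data are a chromatin immunoprecipitation and sequencing experiment (ChIP-seq) on a transgenic fly line that stably carries Hr4 with GFP fused to its C-terminus, so the protein followed is the tagged one. Chromatin came from whole animals, males and females pooled, at the white prepupa stage, in 1 group of 3 biological replicates, and was sheared to 200 to 800 bp. All 3 samples cite the same donor line. The labels give an age of 48 days, which goes against the stage they name, and the antibody is given as Hr4 in one field and as anti-GFP in another. No untagged, mutant or other-stage group was analysed here, so no comparison between conditions and no test was possible, and the read depth behind each peak is unknown.

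Ecdysone is made in the prothoracic gland from dietary sterol. The Rieske oxygenase Nvd carries out the first step, a poorly resolved series of reactions called the Black Box follows (Spo, Spok, Sro and probably Cyp6t3), and the cytochrome P450 enzymes Phm, Dib and Sad then add hydroxyl groups in turn to give ecdysone. Shd, another P450, acts mostly outside the gland and converts ecdysone to the active hormone 20-hydroxyecdysone. Hr4 is itself induced by the hormone, and in the larval gland it is known as a repressor of Cyp6t3. The gland is a small part of the animal, so in chromatin of whole prepupae binding in a few cells and weak binding in many cells cannot be told apart.

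A summit is the base at which a peak is highest. The reproducible list, made by the authors from the pooled and single replicates, holds 8693 summits, 8687 of them on the arms. The relaxed lists, of peaks and background together, hold 30000 entries each, for the pooled reads and for every replicate. The signal value is the authors' measure of peak height on the scale of its own list, so a peak is compared between lists by its percentile (the share of that list's entries with a lower signal value). In the pooled list the weakest reproducible peak had a signal value of 87.99 and the strongest entry below the reproducible threshold 87.98.

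Of the 9 enzyme genes, shd alone had a reproducible summit within 1 kb of a start site, against 22.7% of all protein-coding genes (3164 of 13945). The same gene held the single reproducible summit that fell inside the span of an enzyme gene. The span of shd, 7748 bp, is longer than those of spo, sro, Cyp6t3, phm, dib and sad. The share of all genes with a summit in the span was not counted. Within 500 bp the shd gene was again the single one, against 18.7% of all genes, and within 5 kb dib joined it, against 44.9%. Counting entries of the pooled relaxed list within 1 kb, phm and sad joined shd, which made 3 of 9 against 40.3% of all genes. In a window of the gene span and 20 kb to each side, 7 of the 9 had at least 1 reproducible summit, against 83.8% of all genes, while nvd and spok had none. A pooled relaxed entry lay in the window of 8 of the 9, all but spok, against 96.7% of all genes. These shares rest on 9 genes, and no test was made of their difference from the share over all genes.

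The sequences under the summits that bear on these statements are printed here from the Release 6 genome (dm6) of RefSeq, forward strand, 5′ to 3′, with 101 bases centred on each summit except where stated. Capitals mark matches, on either strand, to the pentamer CGATA, to the TATA box hexamer TATAAA, or to GAGAG, the core of the GAGA element. The first 4 sequences hold the 5 summits owned by shd, those with no other gene's start site nearer, and the stretch of 300 bases holds the pair closest to its first start site.

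shd summits 585 bp and 373 bp upstream, 300 bases (chr3L:14613830-14614129): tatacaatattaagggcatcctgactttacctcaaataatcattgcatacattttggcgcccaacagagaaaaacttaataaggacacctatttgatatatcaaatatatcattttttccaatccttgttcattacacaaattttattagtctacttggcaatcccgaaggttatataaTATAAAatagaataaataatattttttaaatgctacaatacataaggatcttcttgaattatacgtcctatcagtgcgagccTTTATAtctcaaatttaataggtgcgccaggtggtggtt
shd summit 1328 bp upstream (chr3L:14613080-14613180): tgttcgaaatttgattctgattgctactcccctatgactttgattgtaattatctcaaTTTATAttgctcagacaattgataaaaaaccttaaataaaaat
shd summit 3809 bp upstream (chr3L:14610599-14610699): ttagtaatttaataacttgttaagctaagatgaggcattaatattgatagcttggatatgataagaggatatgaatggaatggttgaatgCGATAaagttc
shd intron summit (chr3L:14616789-14616889): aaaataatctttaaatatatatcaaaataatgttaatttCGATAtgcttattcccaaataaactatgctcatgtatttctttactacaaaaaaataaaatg

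The next 4 are the promoter entry of phm that lay below the threshold, the nearest reproducible summit of phm, the strongest summit in any of the windows (in an intron of wit, beside dib) and the summit nearest to sad (at the promoter of CG6962).

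phm entry 347 bp upstream (chrX:18685369-18685469): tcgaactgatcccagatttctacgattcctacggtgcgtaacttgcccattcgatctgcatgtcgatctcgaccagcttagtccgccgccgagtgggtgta
phm summit 6727 bp upstream (chrX:18678989-18679089): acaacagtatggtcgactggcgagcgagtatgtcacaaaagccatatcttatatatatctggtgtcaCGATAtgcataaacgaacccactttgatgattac
wit intron summit beside dib (chr3L:4070532-4070632): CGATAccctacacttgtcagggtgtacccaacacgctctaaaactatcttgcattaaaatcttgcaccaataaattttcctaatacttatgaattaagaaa
CG6962 promoter summit beside sad (chr3R:11882579-11882679): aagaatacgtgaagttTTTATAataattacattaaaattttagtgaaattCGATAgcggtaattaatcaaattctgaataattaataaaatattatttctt

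The summits in the 8 printed sequences were annotated as intergenic or intronic, except the CG6962 summit, annotated as promoter. Overlap of the full stretches with exons was not counted. The sequences ranged from 17.8% to 53.5% GC, and the phm promoter entry, the one with most GC, held none of the 3 motifs.

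**Figure D1:**
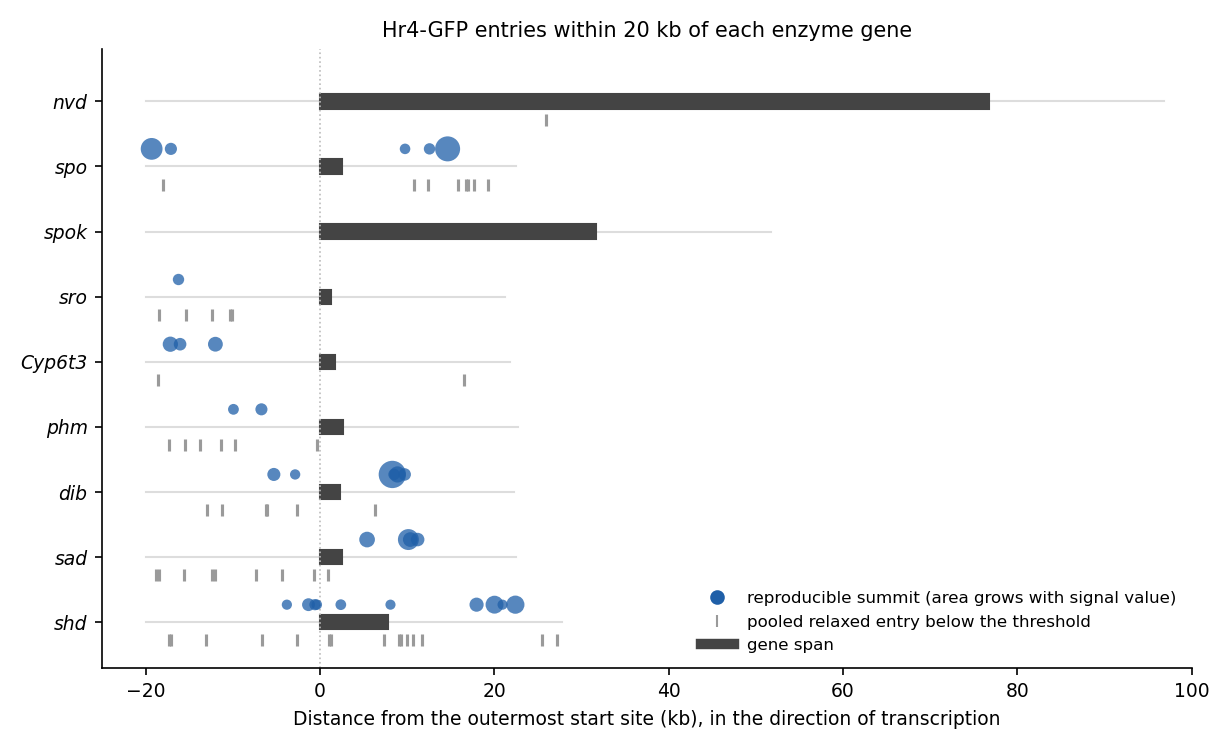
Positions of pooled entries along the 9 enzyme genes in kb from the outermost start site, in the direction of transcription. Dark bars are gene spans, grey lines the windows of 20 kb to each side, blue circles the 31 reproducible summits with area growing with signal value, and grey ticks the 52 entries below the threshold. Circles lie on both sides of spo, dib and shd, upstream alone of sro, Cyp6t3 and phm, and downstream alone of sad. The shd span alone holds one, and the lines of nvd and spok have none.

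The gene nvd (FBgn0287185), the first enzyme of the pathway, spans chr3L:24324866-24401655 on the forward strand and had no reproducible summit in its window. The nearest lay 213007 bp from its start site, a longer distance than for 99.4% of genes. Of pooled relaxed entries the window held 1, in an intron 25965 bp downstream, at rank 26819 of 30000, and no replicate had an entry within 250 bp of it. The nearest reproducible summits on either side were 1229381 bp to the left, 14 bp from a start site of RpL10 (a ribosomal protein gene), and 136218 bp to the right, 510 bp from a start site of mRpS5 (a mitochondrial ribosomal protein gene). The window held 7 entries of replicate 1, 0 of replicate 2 and 1 of replicate 3. Replicate 1 was thus the one with most entries here, though none of its 7 was among its 8693 highest.

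The gene spok (FBgn0086917), a P450 of the Black Box, spans chr3R:3322810-3354486 on the forward strand. It had the longest distance of the 9 genes, 856637 bp, longer than for 99.8% of genes. No reproducible summit lay to its left on the arm, where the first one was at position 4179447, and the nearest to the right, owned by CG12581, lay 824961 bp past the gene end. A summit's owner is here the protein-coding gene with the nearest start site. The window held no pooled relaxed entry either, with 1 entry of replicate 1 and none of replicates 2 and 3. Within 1000 kb to each side of spok there were 6 reproducible summits, and 5 of 41 neighbouring genes had one within 1 kb of a start site. The same stretch around nvd held 1 reproducible summit, and 1 of its 18 neighbours was bound in this sense.

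Both nvd and spok lie in pericentromeric heterochromatin, which is rich in repeats. Repeat-masked bases made up 40.5% of the nvd window and 53.1% of the spok window, against 21.2% of arm 3L and 19.5% of arm 3R. The labels and headers do not state how reads that match several places were treated, and the part of repeats in the missing summits was not tested. A lack of entries at these genes is therefore a lack of called peaks and not a measured lack of binding.

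The gene spo (FBgn0003486; chr3L:5590083-5592571, reverse strand), the P450 closest in kind to Spok, had 5 reproducible summits in its window and 13 pooled entries, none in its span. The nearest summit lay 9447 bp downstream of a start site, a longer distance than for 61.8% of genes, and was owned by l(3)psg2 at 847 bp. This summit was weak and uneven, with a signal value of 112.2 at rank 6938 and percentiles of 8.64, 83.2 and 72.1 in replicates 1, 2 and 3, so that replicate 1 had it among its lowest entries. The strongest of the window lay 14330 bp from spo and 591 bp from Msr-110, with a signal value of 1087 at rank 170 and percentiles of 99.6, 99.1 and 99.4. The second strongest was owned by Eaf6, a subunit of a histone acetyltransferase complex, with a signal value of 800.4. Both of these were at percentile 98.2 or above in all 3 replicates. Eaf6 also owned the nearest summit on the right, 1384 bp from its start site, with a signal value of 181.5.

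The gene sro (FBgn0262112; chr3R:29794597-29795805, forward strand), a short-chain dehydrogenase of the Black Box, had 1 reproducible summit in its window, 16247 bp upstream. It lay in an intron of kay, the fly Fos gene, with fig as the owner 2102 bp away, and its signal value was 146.1 at rank 5320. Its percentiles were 87.3, 71.9 and 73.3 in replicates 1, 2 and 3, highest in replicate 1. To the right no reproducible summit was called for 42206 bp, up to one owned by Prtl99C. Of the 5 pooled entries below the threshold in this window, the nearest lay 10063 bp from sro, inside kay. None of the 9 neighbouring genes in the sro window was bound within 1 kb, against 22.7% of all genes. Etfb, which is among them, had an entry at percentiles 98.6 and 98.2 in replicates 1 and 3 that the pooled relaxed list lacks.

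Cyp6t3 (FBgn0033697; chr2R:12190682-12192436, forward strand), the enzyme gene for which repression by Hr4 is known in the larval gland, had no entry of the pooled list within 12 kb of its start site. Its window held 3 reproducible summits, all upstream, the nearest at 12007 bp, farther than for 68.8% of genes. Each lay near the start site of another gene, 122 bp from EndoG (a mitochondrial nuclease), 180 bp from CCT5 (a chaperonin subunit) and 758 bp from Oda (ornithine decarboxylase antizyme). Their signal values were 317.0, 203.7 and 342.3. The summit at EndoG had percentiles of 93.8 and 92.2 in replicates 2 and 3 and no entry within 250 bp in replicate 1, the one window summit of the 31 that a replicate lacked. To the right the nearest reproducible summit lay 37296 bp past the gene end and was owned by CG8854. In the relaxed list of no single replicate did an entry come nearer to Cyp6t3 than 11744 bp.

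The gene phm (phtm, FBgn0004959; chrX:18685766-18688433, forward strand) was, besides shd, the one enzyme gene that owned reproducible summits. They lay 6727 bp and 9937 bp upstream in intergenic sequence, with signal values of 177.8 and 122.5 at ranks 4309 and 6366. The nearer had percentiles of 79.0, 85.1 and 87.8 in replicates 1, 2 and 3, and the farther 83.0, 80.0 and 66.3, so neither was high in one replicate alone. Owning 2 or more summits was shared by 12.1% of protein-coding genes. At the promoter an entry 347 bp upstream of the start site stayed below the threshold, with a signal value of 59.3 at rank 12535.

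That promoter entry of phm was found in every replicate, at 313, 379 and 370 bp upstream in replicates 1, 2 and 3. Its percentiles there were 66.8, 4.82 and 47.6, which put it near the bottom of replicate 2's list. The phm gene ends 105 bp from the end of Cyp18a1 on the opposite strand, whose product inactivates ecdysteroids. Cyp18a1 had no reproducible summit within 1 kb either, and the next one to the right of phm, owned by CG6891, lay 86485 bp past the gene end. The lists also differ in how many of their entries fall on X, which is 3262 for replicate 1 against 5753 and 6069 for the other 2, and the part of this in the phm percentiles was not tested.

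The gene dib (FBgn0000449; chr3L:4062292-4064551, forward strand) had 6 reproducible summits in its window, none of which it owned. The nearest lay 2860 bp upstream, nearer than for most genes (34.1% had a shorter distance), in the 3′ UTR of CG1136 and 338 bp from a start site of Ugt305A1, a UDP-glycosyltransferase gene. It was weak, with a signal value of 103.2 at rank 7538 and percentiles of 62.5, 72.8 and 79.8 in replicates 1, 2 and 3. On the other side dib overlaps wit, the gene of a type II BMP receptor, on the opposite strand, and 4 summits lay in or just upstream of wit. The strongest of these, in the intron sequence printed above, had a signal value of 1315 at rank 96 of 8693 and percentiles of 99.7, 99.6 and 99.7. It lay 8290 bp downstream of the dib start site and 1093 bp from the nearest start site, that of CG32259.

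The other summits at wit had signal values of 154.1, 400.5 and 196.0 and were owned by wit, at 936, 544 and 282 bp. The weakest of them shares its peak interval with the strongest and lies within 250 bp of it. In replicates 1 and 3 both were matched by 1 and the same entry, so its support there is not separate. Within 1 kb of the dib start site no pooled entry was listed, and replicate 2 alone had an entry there, 186 bp upstream at percentile 53.8.

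The gene sad (FBgn0003312; chr3R:11877235-11879754, forward strand) had 4 reproducible summits in its window, all downstream of the gene. The nearest lay 5394 bp from its start site, at the promoter of CG6962, which overlaps the end of sad on the opposite strand. It had a signal value of 366.5 at rank 1625 and percentiles of 96.1, 94.3 and 92.9. Farther on were 3 summits owned by mthl5, a Methuselah-like receptor gene, the strongest with a signal value of 732.7 at rank 450 and percentiles of 98.3, 98.1 and 98.7. Upstream of sad no reproducible summit was called for 21900 bp, up to one owned by CG6959. All 4 summits of the sad window were at percentile 89.1 or above in every replicate.

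At sad itself the pooled relaxed list had entries 716 bp upstream and 886 bp downstream of the start site, the second in a coding exon. Their signal values were 38.6 and 24.0, at ranks 18543 and 29189 of 30000. Replicates 2 and 3 held the upstream one at percentiles 9.31 and 11.2, and replicates 1 and 3 the downstream one at 21.2 and 32.7. Neither was in all 3 replicates, and both were low where present.

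The gene shd (FBgn0003388; chr3L:14614458-14622205, forward strand, 10 exons), the last enzyme of the pathway, had 10 reproducible summits in its window and 25 pooled entries. As many reproducible summits or more in the window were seen for few genes, since 94.5% had fewer. It was the nearest gene to 5 of the 10, a number reached or passed by 468 genes (3.36%). All 5 were found within 250 bp in every replicate. With 1 start site at each of 14614458 and 14619830, 4 of the 5 lay upstream of the first and 1 in an intron between them.

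The nearest summit to shd lay 373 bp upstream. Its signal value in the pooled list was 108.5 at rank 7183 of 8693, and in replicates 1, 2 and 3 the matching entry had percentiles of 71.5, 80.0 and 66.6. The summit 585 bp upstream had a signal value of 140.0 at rank 5553 and percentiles of 81.2, 80.0 and 82.1. In replicate 2 these were matched by 1 entry, 385 bp upstream, while replicates 1 and 3 listed 2 entries each.

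The strongest summit of shd itself lay 1328 bp upstream, with a signal value of 214.2 at rank 3444 and percentiles of 91.8, 85.4 and 86.1. It was the highest of the 5 in all 3 replicates, but lies outside the 1 kb that counts as bound. The summit 3809 bp upstream had a signal value of 98.8 at rank 7838 and percentiles of 70.0, 74.1 and 72.1, about alike in the 3 replicates. The intron summit, 2381 bp downstream of the first start site, had a signal value of 119.4 at rank 6517 and percentiles of 62.2, 84.6 and 74.4, lowest in replicate 1. All but one of the 5 were weaker than the median reproducible peak, whose signal value was 176.6.

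The other 5 summits of the shd window belonged to its right-hand neighbours. One lay 330 bp past the end of shd and 261 bp from a start site of CG9628, with a signal value of 96.0 at rank 8046. The remaining 4 were owned by dlp, the gene of the glypican Dally-like, and their signal values were 280.4, 510.0, 95.5 and 528.4. The 2 strongest dlp summits, in its introns, had percentiles between 96.1 and 97.3 in every replicate. The peaks nearest to shd were thus lower in every list than the strongest ones at dlp.

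**Figure D2:**
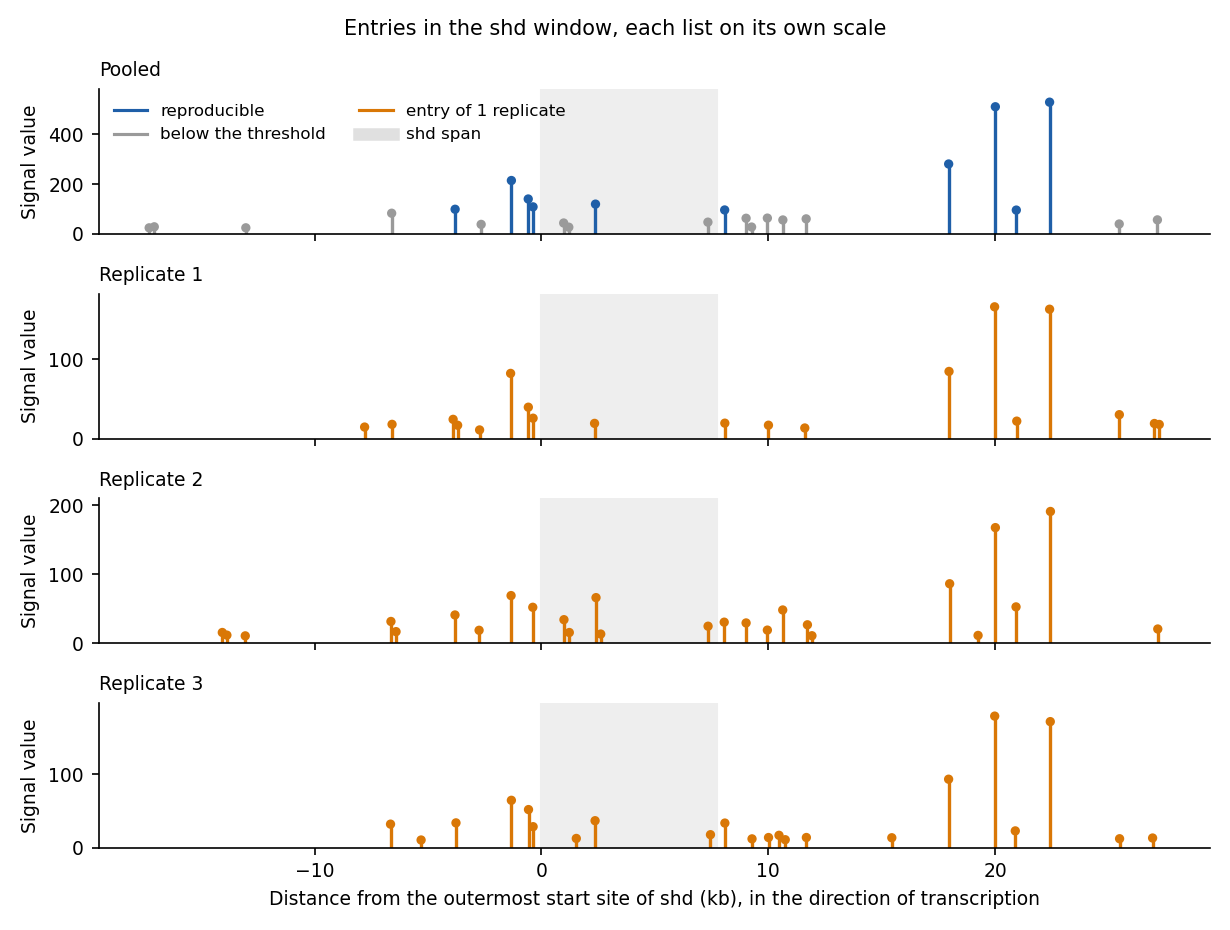
Signal value (vertical axis, each list on its own scale) of the entries in the shd window by distance in kb from the outermost start site, for the pooled list and replicates 1 to 3. In the pooled panel blue marks reproducible summits and grey entries below the threshold, and the grey band is the shd span. The group just upstream of the start site recurs in all 4 panels and stays below the tallest lines at dlp on the right.

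Across the pathway the distance from a start site to the nearest reproducible summit had a median of 9447 bp, against 6176 bp over all protein-coding genes. In ascending order it was 373 bp for shd, 2860 bp for dib, 5394 bp for sad, 6727 bp for phm, 9447 bp for spo, 12007 bp for Cyp6t3, 16247 bp for sro, 213007 bp for nvd and 856637 bp for spok. In this order the genes for the last hydroxylations came before those of the first steps, as a description of 9 genes with no test. The nearest summits of dib and sad were owned by Ugt305A1 and CG6962, and phm lay beyond the median of all genes. At nvd and spok, which set the far end, the lack of called peaks is not a measured lack of binding. With each replicate's 8693 highest entries taken alone, shd remained the one gene within 1 kb in all 3 replicates, and nvd and spok remained without an entry in the window. The shares over all genes were then 21.3%, 25.5% and 24.6% within 1 kb, and 84.2%, 84.4% and 84.5% in the window. With the whole relaxed lists, background included, replicate 1 had phm and shd within 1 kb, replicate 2 phm, dib, sad and shd, and replicate 3 phm, sad and shd, against 38.4%, 47.4% and 45.2% of all genes.

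**Figure D3:**
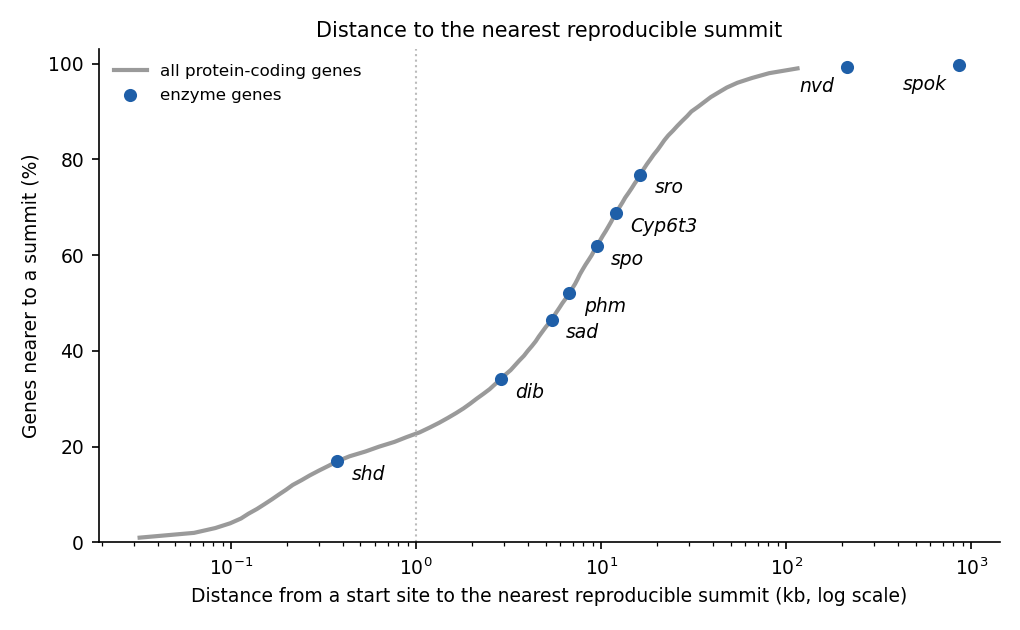
Distance from a start site to the nearest reproducible summit in kb (log scale) against the percentage of protein-coding genes that lie nearer. The grey line covers the 1st to 99th percent of all genes, blue points are the 9 enzyme genes, and the dotted line is 1 kb. The shd point is the one left of the dotted line, and nvd and spok lie beyond the end of the grey line.

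The 31 reproducible summits in the windows were spread over 489.1 kb, which is 0.0634 per kb against 0.0649 per kb over the arms. Without nvd and spok, the 2 genes with no summit in the window, the density was 0.103 per kb over 300.6 kb. Leaving out windows for their lack of summits raises the density by itself. Entries below the threshold lay at 0.106 per kb in the windows, against 0.159 per kb over the arms. Without nvd and spok, whose windows held 1 and 0 of them, these entries lay at 0.170 per kb. The arms' figures still include pericentromeric sequence, so the densities without nvd and spok have no matched baseline. The enzyme genes owned 7 of the 31 summits, shd 5 and phm 2, and 14 other genes owned the remaining 24. Over all protein-coding genes, 27.1% owned at least 1 reproducible summit. The median number of summits per window was 3, as over all genes. By annotation 13 were intergenic, 12 intronic, 5 at promoters (within 250 bp of a start site) and 1 in a 3′ UTR. From the nearest start site of the enzyme gene, 14 lay upstream and 17 downstream, the shd intron summit among the 17. None of the 5 promoter summits was at the promoter of an enzyme gene.

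In height the window summits ran from 95.5 to 1315 with a median signal value of 203.7, and 19 of the 31 were above the median of the whole list. Of the 31, 30 were found within 250 bp in every replicate (96.8%), against 90.5% of all reproducible summits. Of the 52 entries below the threshold, 16 were found in every replicate (30.8%), against 30.5% of all such entries, and 4 were found in no replicate. The windows held 51 neighbouring protein-coding genes, of which 14 (27.5%) were bound within 1 kb, against 22.7% of all genes. In the window of sad 4 of 7 neighbours were bound, though sad itself was not, and in that of shd 3 of 4. These counts are of genes and not of separate summits in the window. The summit counted for Cad87A lies outside the sad window, CG6962 and CG31368 share a summit there, and RecQ5 and dlp share one beside shd.

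**Figure D4:**
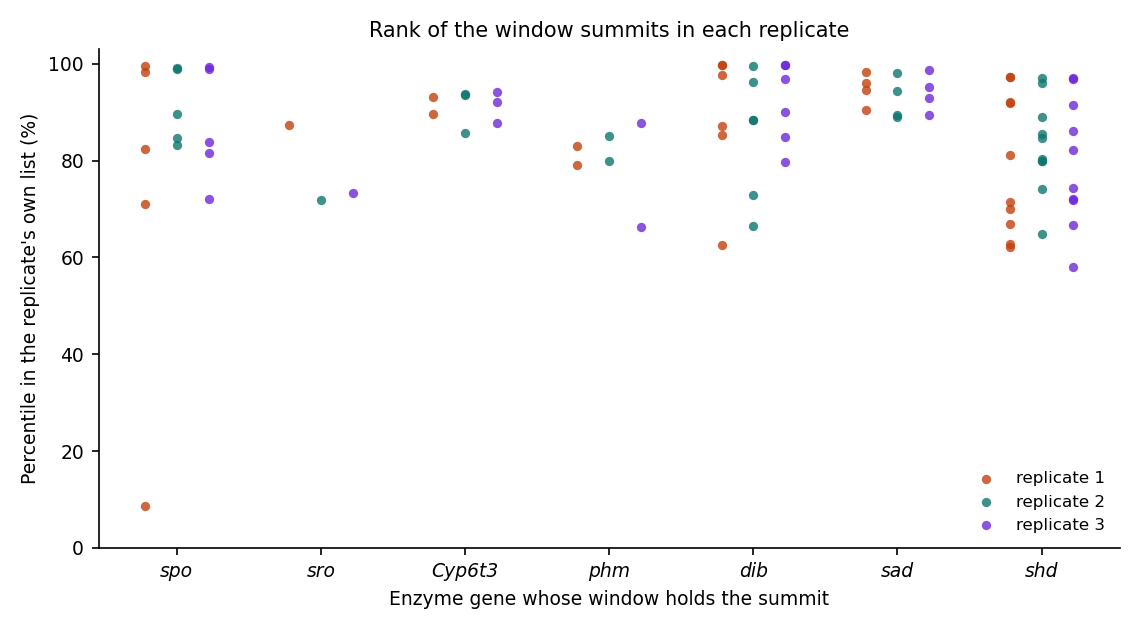
Percentile of each window summit in the relaxed list of replicates 1, 2 and 3 (vertical axis, percent), grouped by the enzyme gene whose window holds it. Each point is a summit, and colour gives the replicate. Most points lie above 60, the lowest is the spo window summit at 8.64 in replicate 1, and one Cyp6t3 window summit has no point for replicate 1.

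Motifs were counted within 50 bp of each summit on both strands. The hexamer AGGTCA, which many nuclear receptors recognise, was at 0 of the 31 window summits and 0 of the 52 entries below the threshold, and at 1.8% of all reproducible summits. The same hexamer preceded by TCA, and repeated directly without spacer, was found at none of them either. These longer forms hold the hexamer, so their counts are not separate. CGATA was at 8 of the 31 (25.8%) against 10.9% of all summits, TATAAA at 9 (29.0%) against 24.3%, and GAGAG at 1 (3.23%) against 8.38%. Among the 52 entries below the threshold, CGATA was at 7 (13.5%), TATAAA at 13 (25%) and GAGAG at 3 (5.77%). No test was made of these differences. CGATA and TATAAA can share letters where they abut.

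In the printed stretch just upstream of shd, TATAAA matched 2 times. Of these, 1 lay within 50 bp of the summit 373 bp upstream, and the other was not within 50 bp of either summit there. TATAAA also matched 1 time at the shd summit 1328 bp upstream. CGATA matched at the shd summit 3809 bp upstream and at the one in the intron. The nearest summit of phm and the wit intron summit held 1 CGATA each, and the CG6962 promoter summit held 1 CGATA and 1 TATAAA. Mean GC content over 101 bases was 30.5% ± 7.89 (SD, n = 31) at window summits and 31.7% ± 7.59 at all 8687. In promoters, taken as 250 bases before to 50 after each start site, AGGTCA was present at spok alone of the 9 genes, and in 7.53% of protein-coding genes. CGATA was present at spok, sro and sad (53.0% of genes), TATAAA at nvd, spo, spok, dib and shd (51.2%), and GAGAG at phm, dib, sad and shd (36.3%). A match is a description of letters, and genes with more start sites have more windows to match in.

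Other genes of the pathway were counted in the same way. These were 16 genes for sterol supply, electron transfer to the P450 enzymes, transcription factors of the enzyme genes and the fate of the hormone. Of the 16, 5 had a reproducible summit within 1 kb (31.3%), against 22.7% of all genes. A pooled entry within 1 kb was listed for 7 (43.8%), against 40.3% of all genes, and no test was made of either difference. The strongest was at Atet, the transporter that loads ecdysone into secretory vesicles, with a signal value of 827.4 at rank 345. Oatp74D, the importer of ecdysone into target cells, had a summit 206 bp from a start site with a signal value of 378.3. Cpr, the reductase that passes electrons to P450 enzymes, had one at 79 bp with a signal value of 159.8. The zinc finger genes woc and mld had summits at 136 and 119 bp, with signal values of 145.5 and 138.9, and that of mld was found in 2 replicates. The other 11, among them Npc1a, Npc2a, dare, Fdx1, Fdx2, ouib and Cyp18a1, had none.

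Beside these, 7 of 11 genes of the ecdysone receptor and the response to the hormone were bound within 1 kb (63.6%), against 22.7% of all genes. The median distance of the 11 was 543 bp. The strongest 5 by signal value were Eip75B at 881.1, Eip74EF at 257.0, usp at 229.9, EcR at 215.2 and Blimp-1 at 186.9. The summit counted for Hr3 was owned by Hdc, and br, ftz-f1, Hr39 and Eip78C were not bound. Genes of this list are long, with a median span of 50.7 kb against 2.52 kb for the enzymes. The part of length in the counts was not tested. The other 82 P450 genes had a median span of 2.10 kb, while nvd and spok among the enzymes span 76790 bp and 31677 bp. Of the 82, 9 were bound within 1 kb (11.0%), 31 had a pooled entry there (37.8%) and 62 a reproducible summit in the window (75.6%). The shares of all genes were 22.7%, 40.3% and 83.8%. The median distance of the 82 was 13374 bp. The counts of the enzymes, at 11.1%, 33.3% and 77.8%, stand beside those of the other P450 genes as a description with no test. The 5 bound P450 genes with the highest signal values were Cyp6u1 at 764.5, Cyp6a2 at 302.6, Cyp6v1 at 239.6, Cyp310a1 at 223.2 and Cyp4d20 at 191.9, and the summit at Cyp6u1 lay nearer to a start site of Ufsp1.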

How the data were processed

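According to text files that accompany the samples, the authors derived relaxed peak lists from single replicates with a control and from all 3 together, then a reproducible list by irreproducible discovery rate analysis, in dm6. Peak heights are signal values as deposited, on each list's own scale. No source here names the peak caller, aligner or thresholds. Lists in dm3 were not used. Summits were placed on Ensembl release 115 genes and the Release 6 genome with Python 3.11.15, pandas 2.3.3 and NumPy 2.4.6. A gene is bound when a reproducible summit lies within 1000 bp of any start site. A summit is found in a replicate when its relaxed list has one within 250 bp. A gene's window is its span and 20 kb to each side. Counting code was tested on simulated data. Named genes are the enzymes, owners of the nearest summit on either side and of the 3 strongest in each window, and up to 5 bound genes per comparison list by signal value. Unbound accessory genes, unbound genes of the hormone response list, and Hr3 with Hdc were named after their values were seen. Other P450 genes were taken by symbol, and 2 of the 84 matches, the cyclophilin genes Cyp1 and Cyp40, were left out after their values had been seen. The members and lists were chosen with earlier results of these data known. Alternatives changed distances, flanks, peak strength, start sites, the motif window and the replicates used.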

Additional observations from a re-analysis of the deposited data

How the results depend on the processing

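Of 81 alternatives, 51 stayed within the set tolerance and 30 moved a value. For counts the tolerance was a fixed ratio to the main value. For distances it was the SD of the values from each replicate's highest entries, which are among the alternatives, so it differs by gene. At phm a change from 6727 bp to 6699 bp thus counted as moved, and at sro one from 16247 bp to 20551 bp did not. The count of enzyme genes bound was 1 and became 2 with 5 kb (dib added), 0 with the stronger 50% of peaks and 3 with the pooled relaxed list. It stayed at 1 with 500 bp, where the summit 373 bp from shd still counts, and with each replicate's highest entries. With the whole relaxed list of replicates 1, 2 and 3, a setting chosen after seeing the data, it was 2, 4 and 3, where 38.4%, 47.4% and 45.2% of all genes have such an entry. The 7 genes with a summit in the window became 5 with a 10 kb flank, 6 with the stronger 50% and 7 otherwise. For neither count was the share of all genes taken with the stronger 50% of peaks, nor for the window with flanks of 10 or 50 kb. The drops there have no baseline. The 31 window summits became 19 with 10 kb, 61 with 50 kb and 19 with the stronger 50%, and the 83 pooled entries became 42 and 192 with 10 and 50 kb. Merging summits within 250 bp, also chosen after seeing the data, left 28. The 30 summits found in every replicate ranged from 30 to 31 when 1 replicate was left out, a step that can only keep or raise the count. They became 28 with a match within 100 bp and stayed at 30 within 500 bp. The median distance of 9447 bp became 12007 bp with the stronger 50%, and 8427 bp and 7977 bp with the highest entries of replicates 1 and 3. Of 45 alternatives for single distances 16 moved, and the largest was nvd, at 1445965 bp with the stronger 50%. No summit gained AGGTCA within 100 bp. No paired analysis was possible because there is 1 group. Read depth is unknown, so a missing peak sets no limit on binding.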

Other observations

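In the window of sro, replicates 1 and 3 each had a high entry that the pooled relaxed list lacks. It lay 8427 bp downstream of the sro start site and 79 bp from a start site of Etfb, the gene of an electron transfer flavoprotein subunit. Its rank was 425 of 30000 in replicate 1 and 532 in replicate 3, with signal values of 228.9 and 229.9, and replicate 2 had no entry within 250 bp. A similar entry in the window of spo, 112 bp from a start site of l(3)psg2, ranked 722 in replicate 1 and 1830 in replicate 3, and no pooled entry lay within 250 bp of it. Among the 1000 highest entries of each replicate, those with no pooled entry within 250 bp numbered 20 of 1000 (2%) in replicate 1, 11 of 985 on the arms (1.12%) in replicate 2 and 12 of 993 (1.21%) in replicate 3. Of the 20 in replicate 1, 5 were also among the 1000 highest of replicate 3 and 1 among those of replicate 2. The reason for their absence from the pooled list was not tested.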
